A study of Rattus norvegicus with 8 samples.

Results

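The heat shock proteins and their DNAJ co-chaperones are the chaperones that fold newly made proteins, refold damaged ones and hold signalling proteins in a responsive state. HSP70 binds exposed stretches of unfolded chains, the J domain of a DNAJ protein stimulates the ATPase of HSP70, and exchange factors of the HSP110 type reset it. HSP90 receives selected clients from HSP70, and the glucocorticoid receptor is the classic example, since it binds hormone only after HSP70, DNAJ and HSP90 have acted on it in turn. Small heat shock proteins hold unfolded chains without ATP, and the chaperonin of HSP60 and HSP10 folds proteins inside mitochondria. The members were taken by name on the array, as probes for genes whose names begin with Hsp and one of the letters a, b, c, d, e or h or a digit, without the proteoglycan gene Hspg2, or with Dnaja, Dnajb or Dnajc. This gave 84 of 41012 probes, for 54 of the 35523 genes and transcript identifiers that the array names. They were 2 HSP90 genes, 12 HSP70 genes, 7 small heat shock proteins, 1 HSP110 gene, 2 chaperonin genes, 3 genes of proteins that bind chaperones and 27 DNAJ genes, of which 4 were DNAJA, 7 DNAJB and 16 DNAJC. Members are named here by their current symbols, so that Hspca and Hspcb on the array appear as Hsp90aa1 and Hsp90ab1, and Hspa5bp1, now Tmem132a, keeps the name under which it was chosen.

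The arrays held RNA of primary thymocytes, the immature T cells of the thymus, from male Sprague-Dawley rats whose adrenal glands had been removed, so that all cultures came from animals without their own adrenal glucocorticoid. Thymi of 3 rats were pooled, and the cells were kept for 6 hours either with 100 nM of the synthetic glucocorticoid dexamethasone, which kills thymocytes by apoptosis (Dex, 4 arrays), or with no addition (Control, 4 arrays). Each array read 1 color and carried 60-base probes. Values are normalized log2 intensities, so that a difference of 1 is a doubling, and the level of a probe depends on its own sequence and was not set against that of other probes. The question was whether the chaperone genes changed with dexamethasone.

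All 14 of the thymocyte markers were well above background on all 8 arrays. The 13 with a value on every array had summed intensities of 334658 to 368670 on Control and 261707 to 361317 on Dex arrays, while Cd8b was left out on Control 1 as an outlier spot. None of the 14 passed the test, 11 were lower in Dex, and on Lck (-0.68), Cd5 (-0.70) and Ptcra (-0.61) all Dex arrays were below all Control arrays. On Cd8b, 0.52 higher, all Dex arrays were above the 3 Control arrays that measured it. The glucocorticoid target Tsc22d3 rose by 3.59 ± 0.18 (standard error, n = 4 arrays per group) with an adjusted p of 0.000153 in limma, and 6 of 7 glucocorticoid target genes listed as controls passed the same test. With the replicate number as a block 5 of the 7 passed, Nfkbia moving from an adjusted p of 0.00643 to 0.0673. Markers of other cells moved in part. Of 9 macrophage markers 8 were well above background throughout and none passed the test, with summed intensities of 4399 to 6122 on Control and 4329 to 8764 on Dex arrays. Mrc1 was 2.12 higher (limma adjusted p = 0.087) and C1qc 0.97 higher, each with all Dex arrays above all Control arrays. Of 9 stromal and epithelial markers 7 were well above background throughout, with sums of 2090 to 2558 and 1666 to 2698. Pecam1 rose by 1.36 (limma adjusted p = 0.0208, and 0.108 with the replicate block), Vwf differed by -0.53 with all Dex arrays below, and Col1a2 differed by -0.76 with overlapping arrays. None of 4 B cell markers or 3 erythroid markers passed. The part of these cells in the results below was not tested, and fewer cells of a type cannot be told apart from less RNA per cell in such bulk RNA.

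Among all the chaperone genes, 1 passed the test. Dnajc2, the J protein of the ribosome, rose 2.93-fold. Of 41012 probes 319 passed at an adjusted p of 0.05, which is 0.778% of the array, against 1 of 84 member probes, or 1.19%. At an unadjusted p under 0.05 the count was 9 member probes (10.7%) against 10.6% of all probes. On 11 member probes (13.1%) the Dex arrays all lay on one side of all Control arrays, against 9.11% of all probes. The member shares were therefore near those of the array as a whole. In 49 of 54 genes the brightest probe differed by less than 0.5 on the log2 scale, 33 were higher and 21 lower in Dex, and the median was 0.04, against 0.00 over all probes. Several probes read 19 of the genes, and they pointed one way in 12 and disagreed in 7. With the probes of a gene averaged, the arrays of the groups did not overlap in 3 of the 19 (15.8%), Hspa8, Hspa4 and Hspd1, against 11.4% of the 4401 genes with several probes on the array. The lowest was Hspa4l at -0.52.

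**Figure D1:**
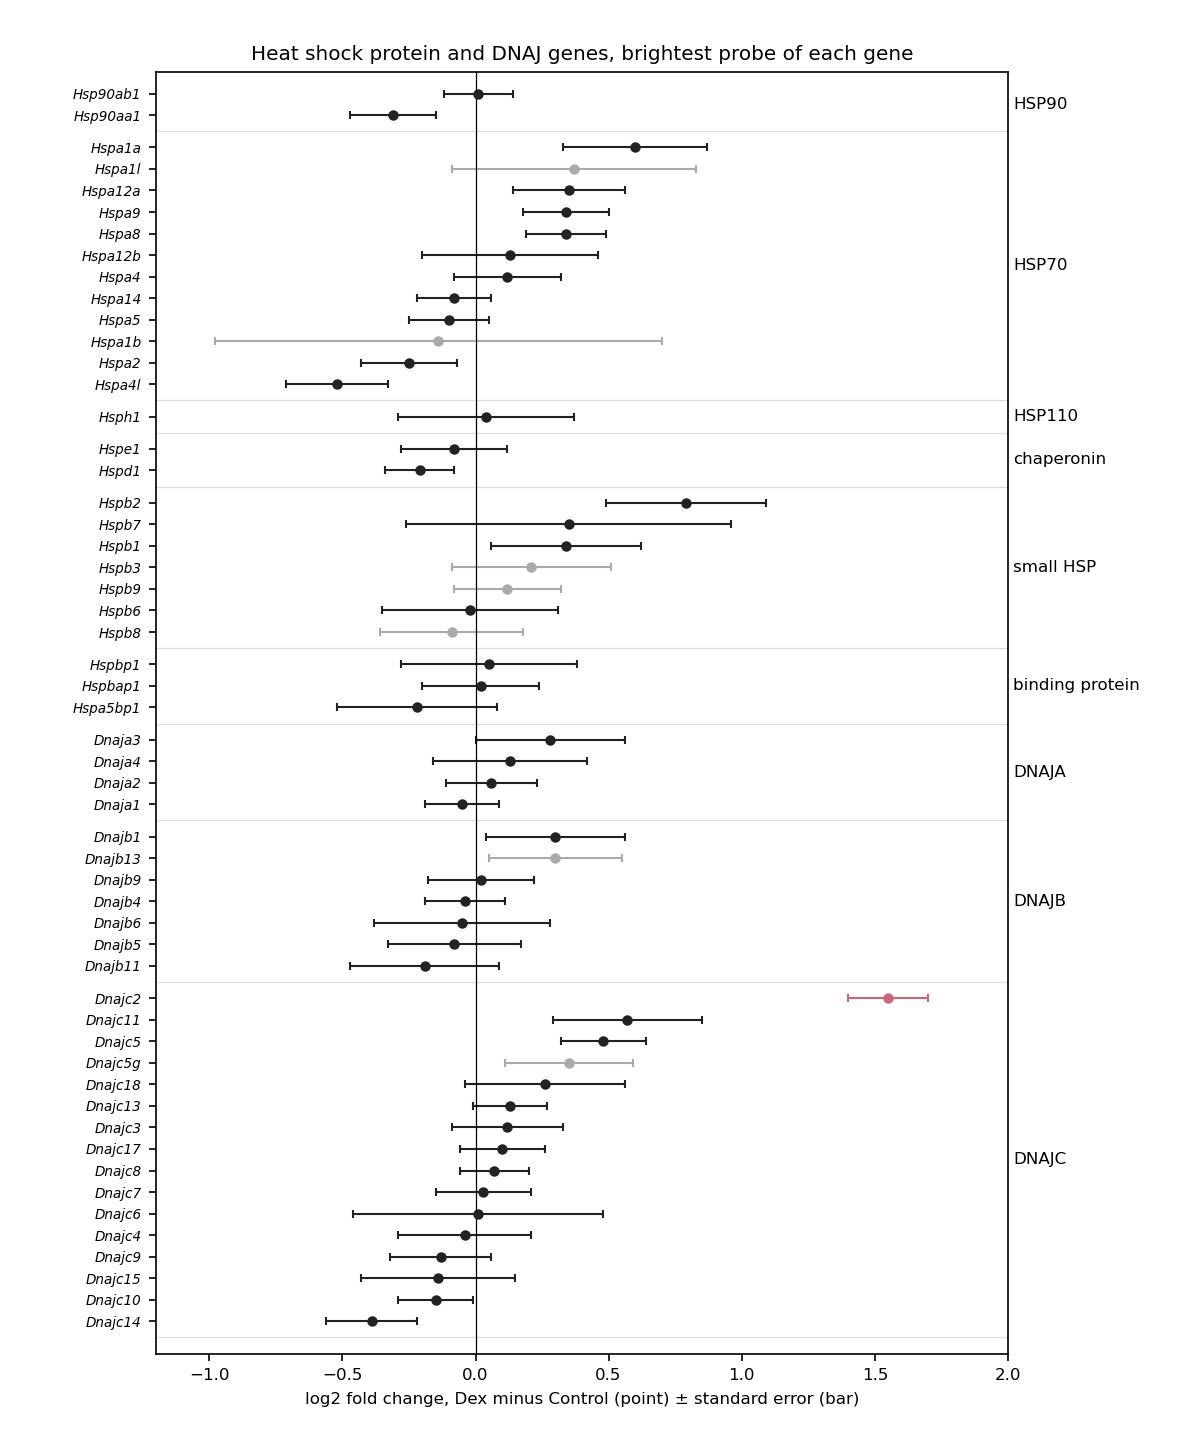
Change of each of the 54 genes with dexamethasone, as the log2 fold change of its brightest probe (x axis, Dex minus Control, 4 arrays each) with its standard error as a bar. Red marks the gene that passed the test (Dnajc2, 1.55), black the other genes well above background on all 8 arrays, and grey those that were not. All genes but Dnajc2 lie between -0.52 and 0.79.

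The DNAJC group held the only member that passed the test. Dnajc2 (also called zuotin or MPP11) docks at the ribosome with the HSP70 protein Hspa14 and acts on chains as they leave the exit tunnel. Its log2 intensities were 12.32, 12.47, 12.50 and 12.27 in Control and 13.81, 13.94, 14.15 and 13.86 in Dex. Every Dex array was above every Control array by more than 1 log2 unit. The difference was 1.55 ± 0.15 (standard error), with a 95% interval of 1.21 to 1.90 and an adjusted p of 0.00413 in limma. Only 1 probe on the array reads this gene, at rn3 chr4:8743659-8743718 on the plus strand. Control 1 and Dex 3 lay on the same slide, and their difference was 1.83. With the replicate number as a block the adjusted p was 0.0498. It was 0.0642 with arrays scaled to their 75th percentile and 0.346 with the slide as a fixed block, a fit in which 1 of 41012 probes passed.

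The first 30 bases of the Dnajc2 probe, which carries the only passing result, and of the brightest probes of the HSP70 and HSP90 genes described below are given here 5′ to 3′ on the strand of the transcript, with no capitals since none of the letters is marked.
Dnajc2: cattcttcttctggtgtcaaaagaactgcc
Hspa8: ctcagattgaggttacttttgacattgatg
Hsp90aa1: gatatctctatgattgggcagtttggtgtt
Hsp90ab1: ctggacagccaacatggaacggattatgaa
The Hspa8 probe lies at rn3 chr8:43795579-43795638 on the plus strand, that of Hsp90aa1 at chr6:135424158-135424217 on the minus strand and that of Hsp90ab1 at chr9:11035576-11035635 on the plus strand. All 3440 pairs of member probes for different genes were aligned without gaps. The most alike, for Hspb1 and Hspb8, had the same letter at 34 of 60 positions. The probes were not compared with the transcripts of related genes, so whether each reads only its own gene was not tested.

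Hspa14, the HSP70 partner of Dnajc2 on the ribosome, read 12.55, 12.58, 12.37 and 12.51 in Control and 12.49, 12.55, 12.40 and 12.27 in Dex. The groups overlapped, and the difference was -0.08 with a 95% interval of -0.40 to 0.25 (limma adjusted p = 0.896). Within each array the change of Dnajc2 relative to Hspa14 was 1.44, 1.50, 1.87 and 1.70 on the Dex arrays, centred on the Control mean, with a Control SD of 0.17. The mean was 1.63, a description without a test, since this partner was chosen after its values had been seen.

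**Figure D2:**
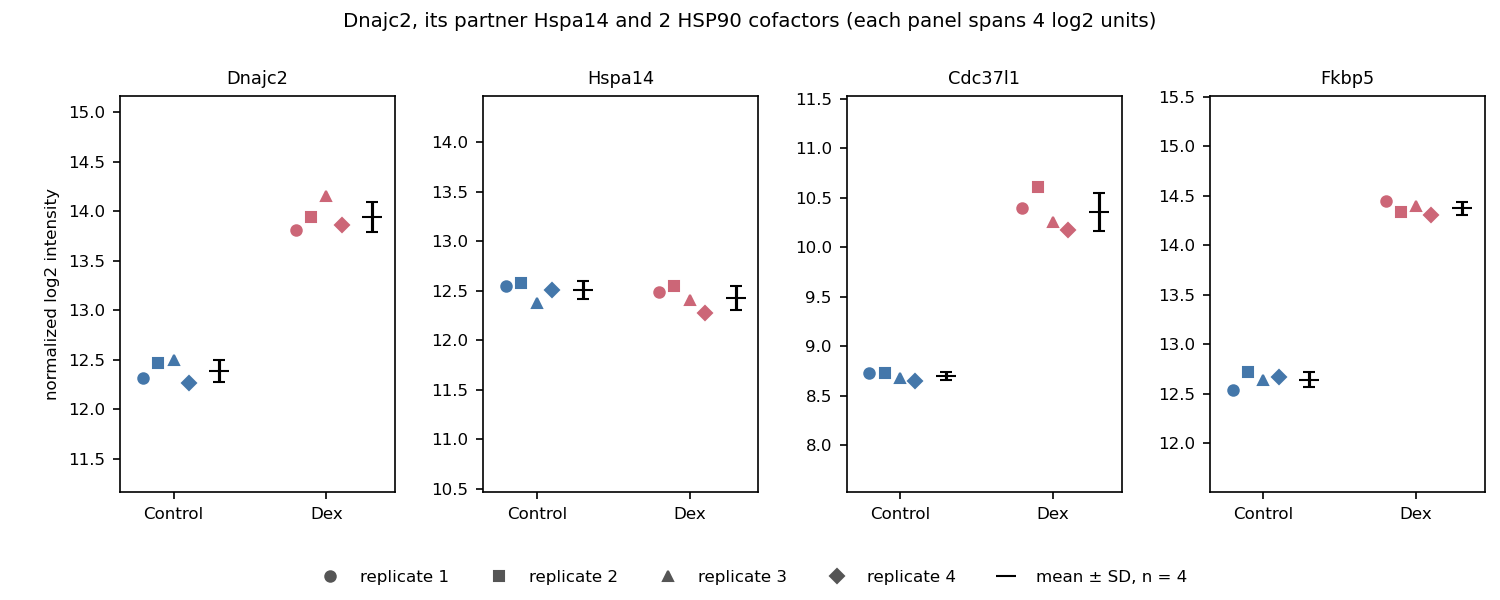
Normalized log2 intensity (y axis) of Dnajc2, its ribosomal partner Hspa14 and the HSP90 cofactors Cdc37l1 and Fkbp5 on each Control (blue) and Dex (red) array, with the symbol giving the replicate and the bar the mean ± SD of 4 arrays. Dnajc2 shifted from a mean of 12.39 to 13.94, while Hspa14 stayed between 12.27 and 12.58 on all arrays.

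The remaining 15 DNAJC genes did not pass. Dnajc5, the cysteine string protein that assists exocytosis of vesicles, read 7.68, 7.60, 7.34 and 7.34 in Control and 7.82, 7.99, 7.89 and 8.18 in Dex. All Dex arrays were above all Control arrays, with a difference of 0.48 ± 0.16 and an adjusted p of 0.32. With normexp it was 0.30, and between Control 1 and Dex 3 on one slide 0.21. Dnajc14, which assists export of membrane receptors from the endoplasmic reticulum, read 9.14, 9.06, 8.82 and 9.00 in Control and 8.80, 8.77, 8.32 and 8.55 in Dex. All Dex arrays were below, at -0.39 ± 0.17 (limma adjusted p = 0.467), and the same-slide difference was -0.82. Dnajc11, a protein of the mitochondrial inner membrane contacts, was 0.57 ± 0.28 higher with overlapping arrays (adjusted p = 0.546), a difference carried by Dex 1 and Dex 2 at 9.34 and 9.59 against 8.51 and 8.62 on Dex 3 and Dex 4. Between Control 1 and Dex 3 on their common slide it was -0.03. Dnajc3, the inhibitor of the kinase PERK in the endoplasmic reticulum, differed by 0.12 with a 95% interval of -0.36 to 0.60. The endosomal protein Dnajc13 had 3 probes at 0.13, 0.44 and 0.19, in order of brightness, of which the one at 0.44 did not overlap between groups (adjusted p = 0.462). By their brightest probes the other DNAJC genes, Dnajc4, Dnajc6, Dnajc7, Dnajc8, Dnajc9, Dnajc10, Dnajc15, Dnajc17 and Dnajc18, lay between -0.15 and 0.26. Dimmer probes gave -0.57 for Dnajc10, -0.18 for Dnajc8 and from -0.18 to 0.58 for Dnajc6, all with overlapping arrays. The probe for Dnajc5g was not well above background on any array. The median of the 16 DNAJC genes was 0.09, with 11 higher and 5 lower.

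None of the DNAJA and DNAJB genes passed, and none had groups of arrays that did not overlap. Most of these J proteins deliver clients to HSP70 in the cytosol and nucleus, while Dnajb9 and Dnajb11 serve the endoplasmic reticulum and Dnaja3 the mitochondria. Dnaja1 and Dnajb1 are the forms known for work on steroid receptors. Dnaja1 read 13.23, 13.15, 13.29 and 13.30 in Control and 13.30, 13.29, 13.14 and 13.03 in Dex, a difference of -0.05 with a 95% interval of -0.38 to 0.27. Dnaja2 differed by 0.06 with an interval of -0.32 to 0.44. Dnajb1, the classic heat-inducible J protein, read 11.18, 11.00, 10.75 and 10.84 in Control and 11.65, 11.71, 10.76 and 10.87 in Dex. Dex 1 and Dex 2 lay above all Control arrays, whereas Dex 3 and Dex 4 lay among them, and the difference of 0.30 ± 0.26 did not pass (limma adjusted p = 0.749). It ranged from 0.15 (without Dex 2) to 0.47 (without Dex 3) with 1 array left out, and was -0.41 between Control 1 and Dex 3 on their common slide. Its other probe gave 0.25. Dnajb6, which keeps aggregation-prone proteins soluble, had probes that disagreed. The brighter read 10.66 and 10.77 on Dex 1 and Dex 2, 11.86 and 11.90 on Dex 3 and Dex 4, and 11.18 to 11.53 in Control, and its group means differed by -0.05. The dimmer read 8.87 and 8.70 on Dex 1 and Dex 2 and 8.32 and 8.40 on Dex 3 and Dex 4, and differed by 0.20. Dnajb9, an endoplasmic reticulum J protein that is induced by unfolded proteins, differed by 0.02 with an interval of -0.43 to 0.48. The others were Dnaja3 at 0.28, Dnaja4 at 0.13, Dnajb4 at -0.04, Dnajb5 at -0.08, Dnajb11 at -0.19 and Dnajb13, a sperm and cilia form that was not well above background on all arrays, at 0.30. Over the groups the medians were 0.09 for the 4 DNAJA and -0.04 for the 7 DNAJB genes.

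Hspa8, the constitutive HSP70 of the cytosol, had 4 probes, and all were higher in Dex. Its brightest probe read 13.81, 13.93, 13.61 and 13.80 in Control and 14.04, 14.29, 14.04 and 14.16 in Dex. Every Dex array was above every Control array, by a difference of 0.34 ± 0.15. Between Control 1 and Dex 3 on their common slide it was 0.22. The 4 probes gave 0.34, 0.37, 0.49 and 0.39, and on 3 of them the arrays did not overlap. Their mean was 0.40 (exact two-sided permutation test, p = 0.0286, the smallest that 4 against 4 arrays allow). The exact tests given here exchange all 8 arrays without regard to the replicate number, and exchanges within the 4 numbered pairs could give no p below 0.125. Over the whole array none of the 4 passed, with adjusted p of 0.322 to 0.567 in limma. With normexp background correction in place of the scanner software's subtraction, the probe at 0.49 gave 0.48 and passed at an adjusted p of 0.0434. By a signal to noise statistic recomputed after the study's methods, with a nominal p of 0.01 and a fold change of 1.2 as thresholds, 5 member probes were selected (5.95% against 6.79% of all probes), namely 1 each for Dnajc2, Dnajc5 and Hspa4l and 2 for Hspa8.

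Both HSP90 genes of the cytosol were measured, and neither passed. Hsp90aa1, the inducible form, had 4 probes, and all were lower in Dex. The brightest read 14.04, 13.98, 13.89 and 13.80 in Control and 13.77, 13.78, 13.61 and 13.32 in Dex. Its Dex arrays all lay below its Control arrays, the nearest being 13.80 and 13.78, and the difference was -0.31 ± 0.16. The 4 probes ranged from -0.55 to -0.30, with adjusted p of 0.51 to 0.651 in limma. On the other 3 probes the arrays overlapped. Hsp90ab1, the constitutive form, read 14.46, 14.44, 14.38 and 14.50 in Control and 14.38, 14.47, 14.41 and 14.56 in Dex, a difference of 0.01 with a 95% interval of -0.30 to 0.31, and its second probe gave -0.14. Taken within arrays and centred on the Control mean, Hsp90aa1 minus Hsp90ab1 differed between the groups by -0.32. Its Dex values were -0.10, -0.17, -0.28 and -0.72 around a Control SD of 0.13. The groups overlapped, with Control 4 at -0.18. Hspa8 minus Hsp90aa1 differed by 0.65, with Dex values of 0.42, 0.65, 0.57 and 0.98 around a Control SD of 0.14. Both pairs were chosen after the values of these genes had been seen, one gene higher and the other lower in the second pair, so the differences are descriptions without a test.

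**Figure D3:**
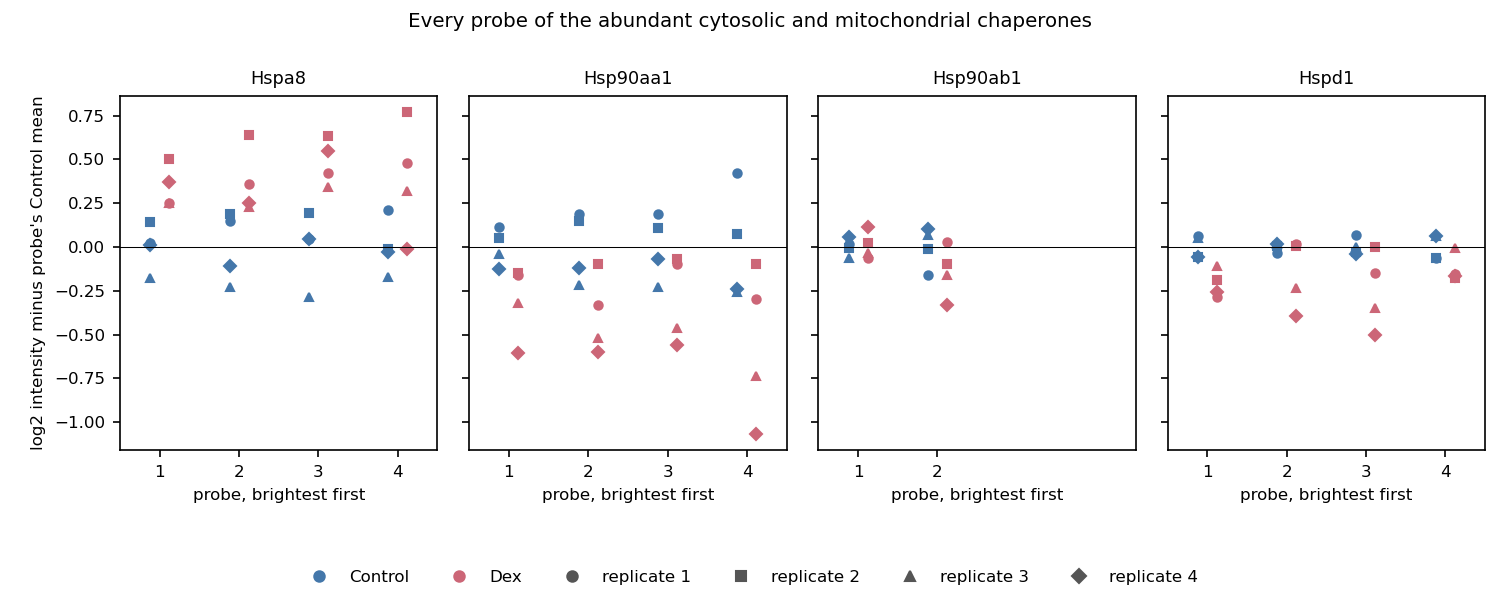
Every probe of Hspa8, Hsp90aa1, Hsp90ab1 and the mitochondrial chaperonin gene Hspd1, as the log2 intensity of each array minus the probe's Control mean (y axis), with probes ordered by brightness (x axis), Control in blue, Dex in red and the symbol giving the replicate. Probe means in Dex lay at 0.34 to 0.49 for Hspa8, -0.55 to -0.30 for Hsp90aa1, 0.01 and -0.14 for Hsp90ab1 and -0.25 to -0.13 for Hspd1.

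None of the 12 HSP70 genes passed. Their median was 0.13, with 7 higher and 5 lower. Hspa9, the HSP70 of mitochondria that pulls imported chains inward, read 12.21, 11.91, 12.12 and 12.39 in Control and 12.48, 12.64, 12.51 and 12.35 in Dex, a difference of 0.34 with a 95% interval of -0.03 to 0.71, and both its probes gave 0.34. Hspa5 (BiP), the HSP70 of the endoplasmic reticulum, differed by -0.10 with an interval of -0.45 to 0.24. Hspa4l and Hspa4 are HSP110-like exchange factors that carry HSP70 names. Hspa4l read 8.60, 8.46, 8.39 and 8.67 in Control and 8.14, 8.36, 7.75 and 7.79 in Dex, with all Dex arrays below and a difference of -0.52 ± 0.19 (limma adjusted p = 0.362), while its second probe also gave -0.52 but overlapped between groups (adjusted p = 0.66). The same-slide difference of the brighter probe was -0.84. With both probes averaged its arrays overlapped (exact two-sided permutation p = 0.114). Hspa4 had probes at 0.12 and 0.48, each with overlapping arrays (limma adjusted p = 0.883 and 0.595). On their mean of 0.30 the arrays did not overlap, a description without a test, since this gene was chosen after its values were seen. Hspa2, the testis form, differed by -0.25, Hspa12b by 0.13 and Hspa14, as above, by -0.08. The exchange factor Hsph1 differed by 0.04 with an interval of -0.73 to 0.80.

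The stress-inducible HSP70 genes varied between arrays of a group. Hspa1a read 6.40, 5.73, 6.76 and 6.20 in Control and 6.47, 6.69, 7.28 and 7.04 in Dex, with overlapping groups and a difference of 0.60 ± 0.27 (limma adjusted p = 0.499), or 0.32 with normexp. Its other probe gave 0.12, and the mean of both was 0.36. Hspa1b read 3.99, 3.86, 3.83 and 5.13 in Control and 3.36, 1.86, 5.01 and 6.00 in Dex, and its SD was 0.62 in Control and 1.83 in Dex around a difference of -0.14. It was well above background on all 4 Control arrays and on 2 of 4 Dex arrays. Hspa1a and Hspa1b encode nearly identical proteins, and their probes lie within one stretch of chromosome 20 in rn3, from 3957065 to 3958568, so the array may not separate their transcripts. Hspa1l, a testis form, was 0.37 ± 0.46 higher and not well above background on all arrays. Hspa12a had 4 probes that disagreed, from -1.04 to 1.61. The one at 1.61 was well above background on 1 of 4 Control arrays and all 4 Dex arrays (adjusted p = 0.26). With the slide as a random block that probe gave 1.77 and passed, at an adjusted p of 0.0316. That fit estimated a negative correlation within slides, -0.235, and 1838 of 41012 probes passed in it, against 319 in the main fit. A pass in it therefore does not show that slide was accounted for.

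The mitochondrial chaperonin genes did not pass. Hspd1 (HSP60), which forms the folding chamber, read 12.58, 12.46, 12.57 and 12.46 in Control and 12.23, 12.33, 12.41 and 12.26 in Dex, with all Dex arrays below and a difference of -0.21 ± 0.13. Its 4 probes ranged from -0.25 to -0.13, with a mean of -0.19 on which the arrays did not overlap (exact two-sided permutation p = 0.0286), while no probe passed in limma (adjusted p = 0.658 to 0.803). Hspe1 (HSP10), the lid of that chamber, read 12.93, 12.63, 12.61 and 12.58 in Control and 12.76, 12.99, 12.35 and 12.32 in Dex, a difference of -0.08 with overlapping groups.

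Of the 7 small heat shock proteins 4 were well above background on all arrays. None passed. Hspb1 (HSP27) read 5.43, 5.24, 5.96 and 5.77 in Control and 5.81, 5.34, 6.22 and 6.40 in Dex, a difference of 0.34 with a 95% interval of -0.29 to 0.98. It was 0.15 with normexp, 0.80 on the common slide and from 0.19 (without Dex 4) to 0.55 (without Dex 2) with 1 array left out. Hspb2, a muscle form, had the largest difference of the group at 0.79 ± 0.30 with overlapping arrays (adjusted p = 0.385), and between Control 1 and Dex 3 on their common slide it was -0.22. With normexp background correction it was 0.19. Hspb3, Hspb6, Hspb8 and Hspb9 lay between -0.09 and 0.21. Hspb7, a heart form, read 4.98 and 4.99 on Dex 1 and Dex 2 and 7.30 and 7.24 on Dex 3 and Dex 4. The group median was 0.21. Of the 3 binding proteins, Hspbp1, an exchange factor of HSP70, differed by 0.05, Hspbap1 by 0.02 and Hspa5bp1 by -0.22, all with overlapping arrays.

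Grouped by compartment, no class held a gene that passed, and Dnajc2 was in none of the classes. The median was 0.30 for 7 inducible cytosolic members, 0.06 for 5 constitutive cytosolic members, -0.13 for 6 genes of the endoplasmic reticulum and -0.05 for 7 mitochondrial genes. Of the 7 inducible members 5 were higher and 2 lower, and 5 were well above background on all arrays. Their summed intensities, which include Hsp90aa1, were 16350 to 19457 on Control and 12460 to 17791 on Dex arrays. The endoplasmic reticulum class includes Hsp90b1, the HSP90 of that compartment, which is no member by name since the array lists it as Tra1. Hsp90b1 read 11.33, 11.24, 11.33 and 11.52 in Control and 11.18, 10.83, 11.05 and 10.98 in Dex, a difference of -0.34 with an adjusted p of 0.475 in limma, while its second probe gave 0.25.

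Dex arrays varied more than Control arrays in these genes. The median SD was 0.19 in Control and 0.33 in Dex, and 46 of 54 genes (85.2%) had the larger SD in Dex, against 75.4% of all probes. In 30 genes (55.6%, against 48.3% of all probes) Dex 1 and Dex 2 both lay above Dex 3 and Dex 4, and in 9 genes (16.7%, against 31% of all probes) both lay below. Dex 1 and Dex 2 had 26474 and 24911 probes well above background, whereas Dex 3 and Dex 4 had 33287 and 33406. Control 2, 3 and 4 shared a slide, as did Dex 1, 2 and 4, so that slide and group can be told apart only by the slide of Control 1 and Dex 3. On the Control arrays the number was 28666 on Control 1 and 33150 to 34476 on the other three. The part of this difference between arrays in the results was not tested.

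**Figure D4:**
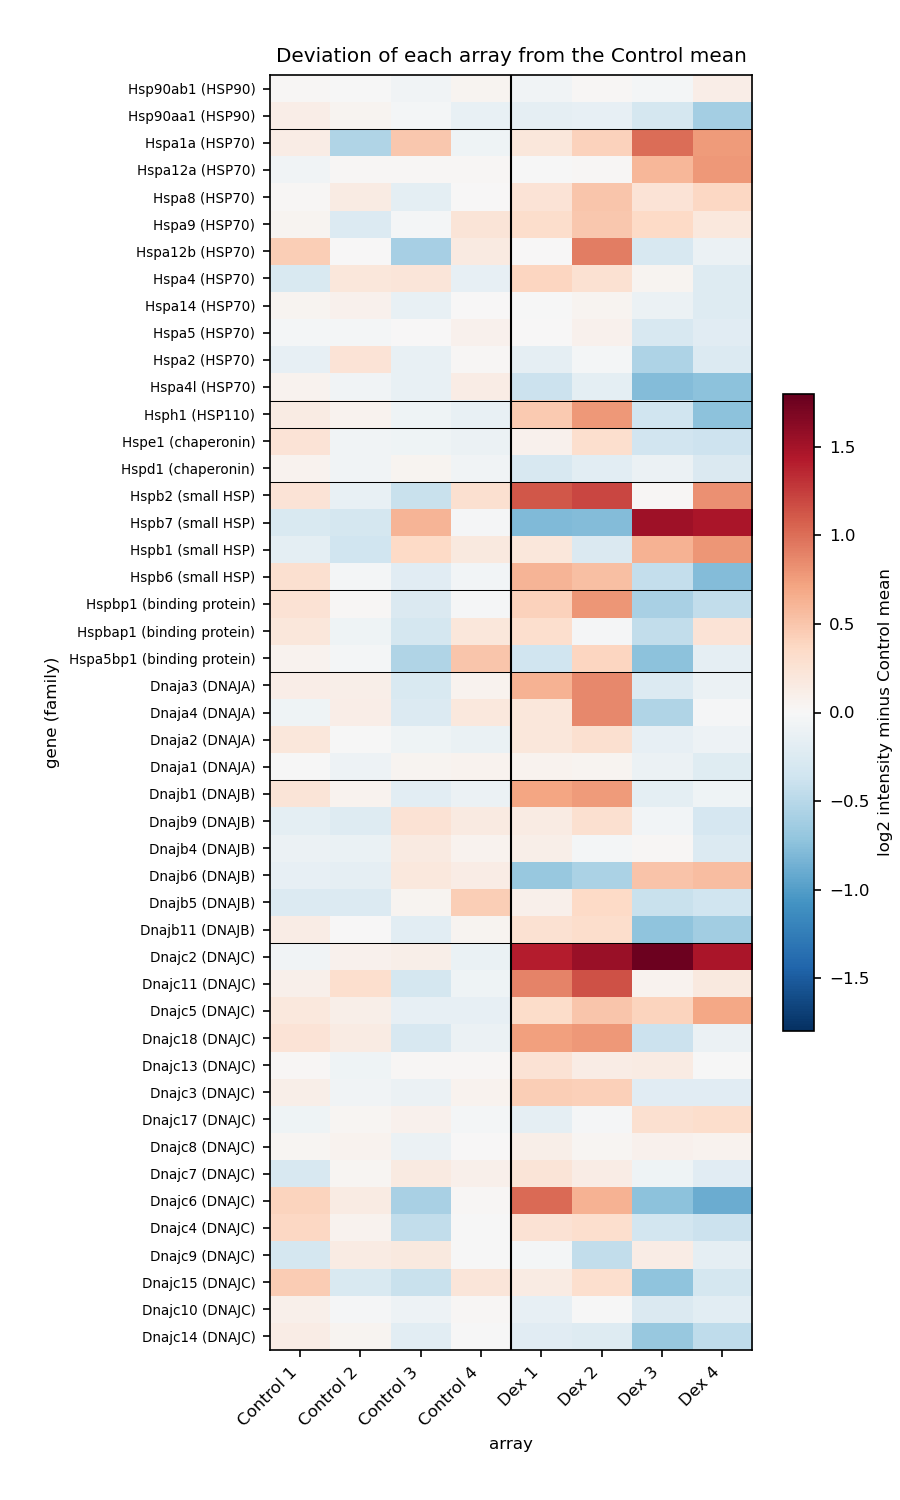
Deviation of each array from the Control mean (color, log2 units) of the brightest probe of each of the 47 genes well above background on all arrays, with arrays as columns, Control left of the line and Dex right of it, and genes as rows by family. Deviations range from -0.89 to 1.76, Dnajc2 is raised on all 4 Dex arrays, and several genes such as Dnajb1, Dnajb6, Dnajc6 and Hspb7 differ between Dex 1 and 2 and Dex 3 and 4.

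Among cofactors of HSP90 and HSP70 and heat shock factors, 23 of 26 listed genes were measured. By their brightest probes 2 passed the test, both higher, against 319 of all 41012 probes. Of the 23, 16 were higher and 7 lower in Dex. On 6 all Dex arrays were above all Control arrays and on 0 all were below, against 1888 and 1848 of all probes. Fkbp5, the immunophilin that holds the receptor in a state of low hormone affinity, rose by 1.73 ± 0.13 (limma adjusted p = 0.00133) from 12.54, 12.72, 12.64 and 12.67 to 14.45, 14.33, 14.40 and 14.30. Cdc37l1, a relative of the kinase-recruiting HSP90 cochaperone Cdc37, rose on both of its probes. The brighter read 8.73, 8.73, 8.68 and 8.65 in Control and 10.40, 10.61, 10.25 and 10.17 in Dex, a difference of 1.66 ± 0.15 (limma adjusted p = 0.00339). The other gave 2.08 (adjusted p = 0.0353, and 0.0915 with the replicate block). Cdc37 itself differed by 0.09. The receptor gene Nr3c1 was 0.81 ± 0.17 higher on its brighter probe, with all Dex arrays above all Control arrays and an adjusted p of 0.0951, and its other probe gave 0.94 (adjusted p = 0.0631). The brighter probe passed with normexp (limma adjusted p = 0.0176), with dim probes left out (0.0438) and with the slide as a random block (0.0152), while its adjusted p was 0.221 with the replicate block and 0.423 with 75th percentile scaling. Hsf1, the main heat shock factor, differed by 0.21 (limma adjusted p = 0.656), St13 by 0.36 (0.44) and Bag3 by 0.39 (0.503), each with non-overlapping arrays. Hsf2 differed by -0.06.

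In the other chaperone lists no gene passed by its brightest probe. The cytosolic chaperonin TRiC, which folds actin and tubulin, had 8 of 8 subunits measured, with differences of -0.08 to 0.35. Of 13 listed folding genes of the endoplasmic reticulum 11 were measured, at -0.44 to 0.89. The highest was Herpud1, an endoplasmic reticulum stress gene for protein disposal, at 0.89 ± 0.18 (adjusted p = 0.0952, with 0.0293 under normexp, 0.0466 with dim probes left out and 0.0125 with the slide as a random block), whose dimmer probe gave 1.05 and passed at an adjusted p of 0.0476, or 0.201 with the replicate block. Of 8 listed genes of mitochondrial import and proteolysis 6 were measured, at -0.09 to 0.43. The median of the 4 lists lay between 0.02 and 0.19. The lists and the cofactors named here were chosen with results of these data known.

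Heat shock factors bind inverted repeats of the unit GAA and its complement TTC, and the promoters of the members were read for these letters. Promoter sequences of RefSeq (build GRCr8, 250 bases before to 50 after the start) were matched for 43 of the 54 genes, all but Dnaja2, Dnajb4, Dnajc2, Dnajc8, Dnajc11, Dnajc15, Hsp90aa1, Hspa12a, Hspa1b, Hspa5bp1 and Hspb2. The 2-unit forms GAANNTTC and TTCNNGAA, which read alike on both strands, were in 15 of 43 member promoters (34.9%) and in 15.9% of 33469 promoters in all. A run of 3 units, which contains both 2-unit forms, was in 5 of 43 member promoters (11.6%) and in 0.798% of all. The 5 were those of Dnaja1, Hspa8, Hspd1, Hspe1 and Hsph1. The core letters of a glucocorticoid response element, ACANNNTGT, were in 3 of 43 member promoters (6.98%), those of Hspa1a, Hspb3 and Hspb6, and in 6.86% of all. These shares describe letters only.

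The promoter runs of the genes for the constitutive HSP70, the HSP10 lid with the HSP60 chamber, and the HSP110 exchange factor are given below because they show how the longest heat shock elements of the members are built. Each is written 5′ to 3′ on the strand of the named gene, with the GAA and TTC units in capitals.
Hspa8: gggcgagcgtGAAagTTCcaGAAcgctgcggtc
Hspe1: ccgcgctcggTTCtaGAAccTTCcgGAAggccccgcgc
Hsph1: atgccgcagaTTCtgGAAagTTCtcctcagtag
The stretch of Hspa8 lies at GRCr8 chr8:50080291-50080323 on the plus strand, and its first unit begins 213 bases before the gene's start. That of Hspe1 lies at chr9:64084252-64084289 on the plus strand and holds 4 units, of which the first begins 65 bases before the start. The same 4 units, at 64084262 to 64084279, stand 242 bases before the start of Hspd1 on the minus strand, since both chaperonin genes share one promoter region and are read away from each other. That of Hsph1 lies at chr12:10427322-10427354 on the plus strand, 36 bases before the start. The genes with 3 or more units had log2 fold changes of 0.34 (Hspa8), -0.08 (Hspe1), -0.21 (Hspd1), 0.04 (Hsph1) and -0.05 (Dnaja1), and none of them passed the test.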

How the data were processed

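RNA of 4 Control and 4 Dex samples was hybridized to 8 arrays on 3 slides. The authors extracted spot intensities with background subtraction (Feature Extraction), and deposited log2 values that were quantile normalized and summarized by median polish. The same log2 values were recomputed here from the deposited intensity columns, without control spots and outlier flags (correlation with the deposited values at least 0.999999). Dex was compared with Control over 41012 probes in limma 3.58.1 (R 4.3.3), without a block, with Benjamini-Hochberg adjustment over all probes and a threshold of 0.05; the brightest probe stands for a gene. Exact two-sided permutation tests over the 8 arrays were run in Python 3.11.15.

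The deviations of arrays with the same replicate number correlated at 0.397, 0.129, 0.55 and 0.184. The main fit and the exact tests did not pair samples of one number. The replicate number served as a block in an alternative fit, and the blocked value is given where it changes a call. Arrays of different numbers could correlate as strongly, with 0.401 between Control 1 and Dex 2, 0.188 between Control 2 and Dex 1, and 0.392 for Control 3 against Dex 4. The series text counts 3 biological replicates for 4 arrays per group, so p-values measure the spread between these arrays, which may in part be technical. Current symbols came from RefSeq (GRCr8) by accession for 38 genes, by symbol for 15 and by synonym for 1. Probe positions are the array's, on rn3. The members, lists and tests were chosen with earlier results of these data known. Named were members that passed, the 3 largest non-overlapping differences per family among probes well above background in the brighter group, and a list of well-known chaperones and glucocorticoid controls. Other named genes, among them Cdc37l1, Hspa14, Hspa4, Hspb2, Dnajc11 and Hspa12a, were chosen after their values were seen. Alternatives were another scaling, normexp (offset 50), dim probes left out, the deposited values, the mean of spots, slide and replicate blocks, each array left out, and the methods' signal to noise statistic (nominal p of 0.01, fold change of 1.2). Procedures were tested on simulated data.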

Additional observations from a re-analysis of the deposited data

Results flagged for a closer look

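In 3 of the groups of 4 arrays tested, 1 array stood apart from the other three, by a share of the group's range above Dixon's critical value for 4 samples at 95%. Of the groups tested for the named genes, 64 in all, chance gives about 1 in 20. Hspa1b was 5.13 on Control 4 (0.884 of the range), against 3.83 to 3.99 on the other Control arrays. Hspe1 was 12.93 on Control 1 (0.85 of the range), against 12.58 to 12.63. Hspa12a was 5.02 on Control 1 (0.941 of the range), against 5.10 to 5.11, which is a gap of less than 0.1 on the log2 scale.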

How the results depend on the processing

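Dnajc2 passed in 13 of 15 limma alternatives, with adjusted p of 0.000289 to 0.346 and log2 fold changes of 1.48 to 1.59 when 1 array was left out. With 75th percentile scaling 0 member probes (166 of all 41012) and 1 gene of the 4 chaperone lists passed. That gene was Cdc37l1 at 1.70 (limma adjusted p = 0.0465), while Fkbp5 at 1.76 did not pass (0.0528). With normexp the counts were 2 and 5 (915 of all probes), and with dim probes left out 1 and 4 (562 of 28476). With the slide as a random block, at a within-slide correlation of -0.235, they were 2 and 4 (1838 of all probes). With the methods' signal to noise statistic they were 5 and 7 (2784 of 40996), and 9 member probes had an unadjusted p under 0.05. With the slide as a fixed block both were 0. That fit rests on the 2 arrays of the mixed slide, and over the whole array it called 1 probe against 319. There, and within that slide, the medians were -0.25 for HSP90, 0.26 for HSP70 and -0.15 for DNAJ (0.06 without the block), and the direction turned for Hsp90ab1 (-0.06), Hspa1b (1.03), Hsph1 (-0.50), Dnaja2 (-0.35), Dnajb1 (-0.41), Dnajb6 (0.67), Dnajc3 (-0.31), Hspb2 (-0.22) and Dnajc11 (-0.03). It also turned for Hspa1b with normexp (0.13), for Hspe1 with the random block (0.00), and with the mean over all probes for Hsp90ab1 (-0.07), Dnajb6 (0.08) and Dnajb9 (-0.00). None of these genes passed in any fit with all arrays, and the cause was not tested.

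With 1 array left out, 1 member probe and 2 list genes passed in all 8 fits. The medians then ranged from 0.06 to 0.21 for HSP70, -0.18 to -0.12 for HSP90, 0.07 to 0.46 for small HSPs and -0.01 to 0.11 for DNAJ. Genes whose direction turned were Hsp90ab1 (-0.03 to 0.03), Hspa1b (-0.79 to 0.59), Hsph1 (-0.21 to 0.30), Hspe1 (-0.21 to 0.01), Dnaja2 (-0.01 to 0.13), Dnajb6 (-0.25 to 0.17) and Dnajb9 (-0.07 to 0.13), none of which passed.

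With the replicate block 81 probes of the array passed against 319. Dnajc2 passed at 0.0498, as did the brightest probes of Fkbp5 and Cdc37l1, and no call among the brightest probes of the 32 genes examined changed, while the control Nfkbia (0.0673) and the marker Pecam1 (0.108) no longer passed. Of 224 values of these genes in the 7 other limma fits to all 8 arrays, 201 kept their direction and side of the threshold, 11 turned direction, 6 lost the call and 6 gained it. Small HSPs near background and the number of arrays limit precision.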
